A study of Mus musculus with 16 samples.

Results

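Gfap, Vim, Nes, Synm and Plec encode the intermediate filament proteins of astrocytes and the linker that ties these filaments to the rest of the cytoskeleton. These 5 genes were read out of the 55404 genes in a table of RNA sequencing from whole brain, with 8 mice of the genotype Tecpr2 ki/ki and 8 of the genotype wt/wt, and all 5 were among the 23244 genes with values high enough to be tested. Gfap was selected on its values here, since its level differed between the genotypes in these same mice, so its difference is described without a test. Vim, Nes, Synm and Plec were chosen for their role, and the question was whether they moved with Gfap.

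The Tecpr2 ki/ki genotype is homozygous for the L1152fs frameshift, written L1152Yfs in the study, which was introduced by CRISPR/Cas9 editing of C57BL/6J zygotes. The wt/wt mice carry the unedited gene. All mice were males of 5 months without treatment, and each gave 1 library of total RNA from whole brain, depleted of ribosomal RNA. The frameshift is present in every cell of the body, and whole brain RNA pools all regions and cell types, so that more astrocytes and more RNA per astrocyte cannot be told apart. The deposited values were normalised by the authors, and the libraries they came from held between 9.23 and 15.39 megareads on genes, as estimated from the rounding of the values. Tecpr2 itself stood at 300.2 ± 14.1 (SD, n = 8) in Tecpr2 ki/ki and 963 ± 24.4 in wt/wt mice, and no mouse fell between the genotypes. No library went against its label, and the totals of the normalised values lay between 11964284 and 12252324.

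Intermediate filaments are rope-like polymers that give a cell its mechanical strength. In mature astrocytes they are built from the type III proteins Gfap and vimentin, with nestin and synemin as larger partners that cannot form filaments alone. Plectin, a member of the plakin family, ties the filaments to actin, to microtubules and to the membrane. A rise in Gfap is the best known mark of reactive astrocytes, and vimentin, nestin and synemin are described to follow it when the reaction is strong. Vimentin and nestin are also made by endothelial and other cells of the vessel wall, vimentin by fibroblasts of the meninges and by ependymal cells, and nestin by neural progenitors. Plectin is made by many cell types.

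All gene positions are from the GENCODE annotation of GRCm38, an earlier build than the GRCm39 that the authors aligned to. Gfap (ENSMUSG00000020932) lies on the minus strand of chromosome 11 from 102887336 to 102900912, with 4.22 kb of exons. A non-coding gene on the opposite strand, Gm26668, overlaps it and was not analysed here. Vim (ENSMUSG00000026728) lies on the plus strand of chromosome 2 from 13573927 to 13582826 and overlaps no annotated gene. Nes (ENSMUSG00000004891) lies on the plus strand of chromosome 3 from 87971078 to 87980451, also free of overlaps. Synm (ENSMUSG00000030554) lies on the minus strand of chromosome 7 from 67730160 to 67759742. It overlaps Ttc23 on the other strand, which had values of 40 to 63 across the 16 mice. Plec (ENSMUSG00000022565) lies on the minus strand of chromosome 15 from 76170974 to 76232574, with 18.11 kb of exons in 22 annotated transcripts. It overlaps Parp10 on the same strand, which had values of 27 to 41. Whether the counting used the strand is not stated, so reads of overlapping genes could not be assigned with certainty.

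The starts of Gfap and Vim are shown because these are the type III filament genes of astrocytes, and their levels parted between the genotypes. Each sequence runs from 250 bases before the RefSeq transcription start to 30 bases after it, on the strand of the gene, at chr11:102897171-102897450 for Gfap and chr2:13574061-13574340 for Vim (RefSeq, GRCm38.p6). Both windows lie inside the GENCODE spans given above, so the RefSeq starts used here differ from the outermost annotated starts. Capitals mark matches to the searched motifs.
Gfap: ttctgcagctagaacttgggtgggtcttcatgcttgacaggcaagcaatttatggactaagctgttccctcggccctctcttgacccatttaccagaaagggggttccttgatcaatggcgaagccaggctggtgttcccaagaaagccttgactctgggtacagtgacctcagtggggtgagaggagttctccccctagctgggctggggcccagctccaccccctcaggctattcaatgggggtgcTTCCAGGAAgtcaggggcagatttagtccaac
Vim: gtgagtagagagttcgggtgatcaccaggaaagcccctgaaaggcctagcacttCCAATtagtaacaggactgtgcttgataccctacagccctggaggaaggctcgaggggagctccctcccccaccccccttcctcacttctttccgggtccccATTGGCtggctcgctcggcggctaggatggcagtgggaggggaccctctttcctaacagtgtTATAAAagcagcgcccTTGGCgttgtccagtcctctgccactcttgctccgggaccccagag
The motifs searched on both strands were TTCNNNGAA (the STAT-type pattern), TGANTCA (AP-1), TTGGC (nuclear factor I), TATAAA and CCAAT. The Gfap window held 1 match, TTCCAGGAA, which starts 2 bases before the RefSeq transcription start. The Vim window held no STAT-type match, 2 matches of TTGGC, 1 of TATAAA that starts 32 bases before the start, and 2 of CCAAT, 1 of them on the minus strand and overlapping a TTGGC match. Across 32851 windows of this length in the RefSeq table, the STAT-type pattern occurred in 7.83%, AP-1 in 7.46%, TTGGC in 44.7%, TATAAA in 13.1% and CCAAT in 36.1%. The Synm window held TTGGC with an overlapping CCAAT on the minus strand, and the Nes window held none of the 5 patterns. These matches describe the letters of the windows only.

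Gfap stood far apart between the genotypes. Its normalised value was lowest at 1997, 2093.5 at the median and 2323 at the highest in Tecpr2 ki/ki mice, and 1300, 1419.5 and 1468 in wt/wt mice. All 8 Tecpr2 ki/ki mice therefore lay above all 8 wt/wt mice. The means were 2114 ± 102 (SD, n = 8) and 1411 ± 56.2, a difference of 49.8%, and the log2 difference was 0.58 with a 95% interval of 0.53 to 0.64. Because Gfap was chosen for this difference, no p is given for it. Its interval is a description, also where it is set beside those of other genes. The scatter between mice of a genotype was small, with a coefficient of variation of 4.84% in Tecpr2 ki/ki and 3.98% in wt/wt mice, against 2.22% and 2.61% from read counting alone.

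**Figure D1:**
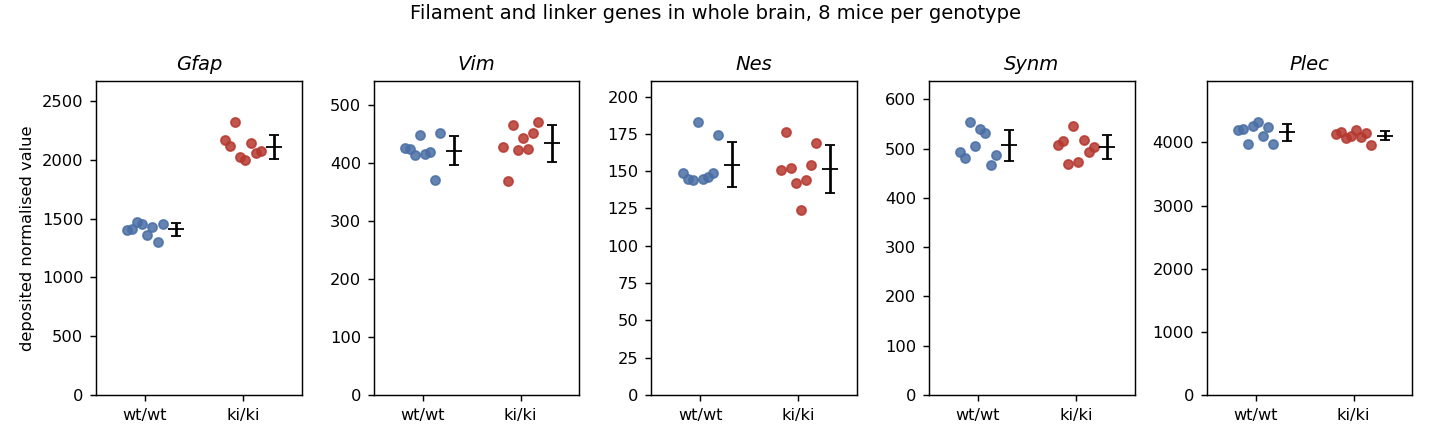
Normalised values of Gfap, Vim, Nes, Synm and Plec (vertical axes, as deposited, each from 0) in whole brain of 8 wt/wt (blue) and 8 Tecpr2 ki/ki mice (red), with 1 point per mouse and the mean ± SD beside the points. Gfap is the panel in which the genotypes part, with Tecpr2 ki/ki mice at 1997 or above and wt/wt mice at 1468 or below, while the values of the other 4 genes overlap.

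Vim, the type III partner of Gfap in the same filaments, was not detectably higher in whole brain. Its value was 369 at the lowest, 435.5 at the median and 471 at the highest in Tecpr2 ki/ki mice, and 371, 421.5 and 452 in wt/wt mice. The ranges nearly coincided, with 2 Tecpr2 ki/ki mice above all wt/wt mice and 1 below all of them, although 7 of 8 lay above the wt/wt median. The log2 difference was 0.04 (95% interval -0.04 to 0.13) and did not pass the test (limma, adjusted p over all tested genes = 0.931 and exact two-sided permutation p = 0.400). In percent, this interval runs from -3.05% to 9.52%, whereas that of Gfap runs from 44.3% to 55.3%. Both hold for RNA pooled over all regions and cell types, and do not bound the change within astrocytes or within 1 region.

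Nes, the nestin gene of progenitors and of vessel and reactive astroglial cells, was the lowest of the 5 genes and the most variable. In Tecpr2 ki/ki mice it was 124 at the lowest, 151.5 at the median and 176 at the highest, with 2 mice below all wt/wt mice. The wt/wt mice spanned 144 to 183 around a median of 147.5. The log2 difference was -0.03 (95% interval -0.17 to 0.11, limma adjusted p = 0.978, exact permutation p = 0.718). Read counting alone gives a coefficient of variation of 8.31% at this level in Tecpr2 ki/ki mice, where the observed one was 10.6%, and the interval of the difference runs from -10.9% to 7.89%.

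Synm, which encodes the large partner synemin, had all 8 Tecpr2 ki/ki mice inside the range of the wt/wt mice. The values were 469, 506 and 545 (lowest, median and highest) in Tecpr2 ki/ki and 466, 499 and 554 in wt/wt mice. The log2 difference was -0.01 (95% interval -0.09 to 0.07, limma adjusted p = 0.987, exact permutation p = 0.813). The interval ends at 4.93% above the wt/wt level.

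Plec, the linker, had the highest values of the 5 genes, with a mean above that of 98.5% of the tested genes. Its values were 3967, 4115 and 4194 (lowest, median and highest) in Tecpr2 ki/ki and 3974, 4206 and 4325 in wt/wt mice. No Tecpr2 ki/ki mouse lay above the wt/wt median, yet the ranges overlapped and the log2 difference of -0.02 did not pass the test (95% interval -0.06 to 0.02, limma adjusted p = 0.931, exact permutation p = 0.333). A rise of more than 1.32% lies outside this interval.

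Across all tested genes, limma called 31 at an adjusted p under 0.1, which is 0.133% of them, with 0.0946% called higher and 0.0387% called lower in Tecpr2 ki/ki mice. None of the 4 genes chosen for their role was called, nor had any of them an unadjusted p under 0.05, a level that 6.08% of all tested genes reached. Values of the genotypes did not overlap for 0.0860% of the tested genes (0.0645% with Tecpr2 ki/ki above wt/wt), and for none of these 4 genes. The intervals of the 4 genes end at 9.52%, 7.89%, 4.93% and 1.32% above the wt/wt level (Vim, Nes, Synm and Plec). That of Gfap, which was chosen for its difference, starts at 44.3% and was not tested against them. These intervals hold for whole brain RNA, and levels within astrocytes were not measured. Among the 11241 tested genes with a mean value of at least 100, 3 had a log2 difference as large as that of Gfap or larger, namely Gfap, the complement gene C4b (0.69) and Mid1 (0.59), the last with overlapping genotypes and a standard error of 0.404. C4b and Mid1 were named after their values had been seen.

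To compare genes, values were divided by the joined length of all annotated exons of a gene, which for Plec come from 22 transcripts. The lengths of the expressed transcripts were not measured, so the order and shares below hold for this scale only. On it, Gfap was the most abundant of the 5 transcripts in both genotypes. It stood at 501 ± 24.3 per kb (SD, n = 8) in Tecpr2 ki/ki and 334 ± 13.3 in wt/wt mice. Plec followed at 227 ± 3.84 and 229.7 ± 7.17 per kb, then Vim at 91.6 ± 6.79 and 88.8 ± 5.23, Synm at 63.4 ± 3.14 and 63.9 ± 3.93, and Nes at 23.6 ± 2.51 and 24.1 ± 2.37. Neighbours in this order were separated by more than their spread, and the order was the same in both genotypes. The sum of the other 4 genes was 405 ± 3.23 per kb in Tecpr2 ki/ki and 406 ± 8.95 in wt/wt mice. Gfap thus made up 55.3 ± 1.21% of the 5 transcripts per kb in Tecpr2 ki/ki and 45.1 ± 1.00% in wt/wt mice, with no overlap between the lowest value of 54.0% and the highest of 46.6%.

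The ratio of Gfap to each of the other genes within a mouse does not depend on how its library was scaled. Gfap to Vim was 4.40 at the lowest, 4.90 at the median and 5.73 at the highest in Tecpr2 ki/ki mice, and 3.22, 3.32 and 3.55 in wt/wt mice. Gfap to Nes was 12.0 to 16.1 against 7.95 to 10.2. Gfap to Synm was 3.72 to 4.95 against 2.53 to 2.99, and Gfap to Plec 0.476 to 0.571 against 0.307 to 0.369. All 4 ratios separated the genotypes without overlap, and their log2 differences of 0.54 (Vim), 0.61 (Nes), 0.59 (Synm) and 0.60 (Plec) were close to the 0.58 of Gfap itself. These ratios carry the difference that chose Gfap and were not tested.

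**Figure D2:**
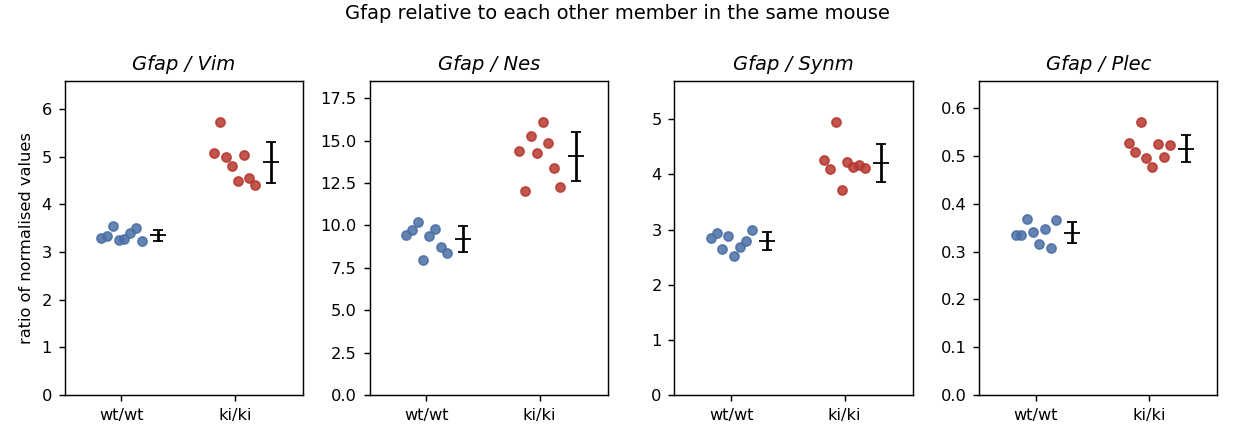
Ratio of the normalised value of Gfap to that of Vim, Nes, Synm and Plec in the same mouse (vertical axes from 0) for 8 wt/wt (blue) and 8 Tecpr2 ki/ki mice (red), with 1 point per mouse and the mean ± SD beside the points. In each panel the lowest Tecpr2 ki/ki mouse lies above the highest wt/wt mouse, for example 4.40 against 3.55 for Gfap to Vim.

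The genes beside Gfap on chromosome 11 were looked at next. On one side, Ccdc103 was 18.2 ± 4.33 in Tecpr2 ki/ki and 20 ± 4.04 in wt/wt mice (log2 difference -0.13, limma adjusted p = 0.955), and Fam187a was near the limit of detection with means of 5.88 and 4.50 (adjusted p = 0.971). On the other side, Kif18b had means of 1.75 and 1.88 and was too low to be tested. C1ql1 was 65.1 ± 6.53 and 70.2 ± 9.51 (log2 difference -0.10, limma adjusted p = 0.925). None of the 3 tested neighbours was called.

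The other intermediate filament genes were tested as well. Of 32 listed genes of this family (neurofilaments, lamins, keratins, desmin and others), 26 were tested, 10 with a higher and 16 with a lower mean in Tecpr2 ki/ki mice. None was called, beside 0.133% of all tested genes. Low genes were imprecise, and the 95% intervals of Bfsp1 (-0.09 to 1.06) and Sync (-0.16 to 0.65) include the 0.58 of Gfap. Their median log2 difference was -0.03, beside -0.00098 over all tested genes. The highest members were neuronal. Nefl, the light neurofilament subunit, stood at 2761.5 ± 29.6 (SD, n = 8) in Tecpr2 ki/ki and 2846 ± 126.5 in wt/wt mice (log2 difference -0.04, limma adjusted p = 0.837). Ina, which encodes internexin, was at 1947 ± 57.3 and 1967 ± 67.5 (-0.01, limma adjusted p = 0.968), and Nefm, the medium subunit, at 1548.5 ± 54.5 and 1598 ± 64.8 (-0.05, limma adjusted p = 0.877). Krt222, a keratin-like gene, was the only one with an unadjusted p under 0.05 (log2 difference -0.09, limma adjusted p = 0.79). The other type III genes, desmin (Des) and peripherin (Prph), were low, with means of 33.6 and 36.4 for Des and 24.8 and 29.8 for Prph (limma, adjusted p = 0.95 and 0.89). Krt222, Des, Prph, Bfsp1 and Sync were named after their values had been seen.

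Among 5 plakin linkers related to Plec in the table, 4 had a higher mean in Tecpr2 ki/ki mice and none was called, with a median log2 difference of 0.03. Macf1, which links microtubules to actin, stood at 12708.5 ± 190.5 and 12486 ± 232 (log2 difference 0.03, limma adjusted p = 0.826). Dst, which encodes dystonin, stood at 11971 ± 138 and 11699 ± 172 (log2 difference 0.03, 95% interval 0.01 to 0.06, limma adjusted p = 0.641). Evpl, which encodes envoplakin, was at 90.9 ± 8.90 and 98.8 ± 11.7 (limma, adjusted p = 0.902). The 12 genes of filament anchorage at the membrane (dystrophin complex, integrins and focal adhesion) were split evenly, with 6 higher, 6 lower, none called and a median of -0.0016. The highest were Dtna, which encodes dystrobrevin, at 2390.5 ± 58.0 and 2344 ± 24.9, Utrn (utrophin) at 2045 ± 80.5 and 2049.8 ± 46.9, and Dmd (dystrophin) at 1885 ± 75.7 and 1905 ± 53.9. Their adjusted p in limma were 0.902, 0.991 and 0.967. Lama2, a laminin chain of the basement membrane, was the only anchorage gene with an unadjusted p under 0.05 (log2 difference 0.09, limma adjusted p = 0.820), and was named for that after its value had been seen.

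**Figure D3:**
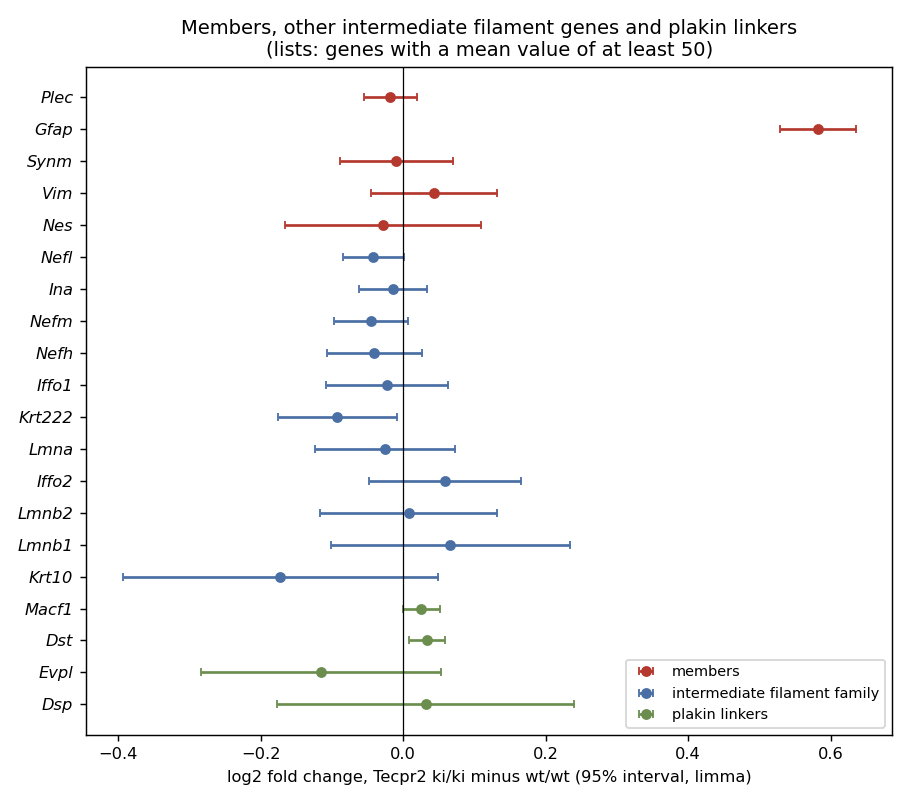
Log2 fold change, Tecpr2 ki/ki minus wt/wt (horizontal axis), with its 95% interval from limma, for the 5 genes (red), for the other intermediate filament genes (blue) and for the plakin linkers (green) with a mean value of at least 50, each group in descending order of mean. Gfap at 0.58 stands to the right of every other interval shown, and among the red points the interval of Vim reaches 0.13. Lower genes such as Bfsp1, whose interval reaches 1.06, are not shown.

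Enzymes that modify filament proteins held the single called gene among the filament lists. This was 1 of 15 tested enzymes, beside 0.133% of all tested genes. The list was chosen with earlier results of these data known. Of 18 listed kinases, phosphatases, deiminases and proteases, 15 were tested, 7 with a higher and 8 with a lower mean, with a median log2 difference of -0.0065. Padi2, a peptidylarginine deiminase that converts arginine residues of proteins such as Gfap and myelin basic protein to citrulline, rose in Tecpr2 ki/ki mice. Its value was 429 at the lowest, 456.5 at the median and 486 at the highest in Tecpr2 ki/ki mice, and 348, 374 and 409 in wt/wt mice. The genotypes did not overlap, and the log2 difference was 0.28 (95% interval 0.19 to 0.36, limma adjusted p = 2.29e-05). The highest genes of the list were kinases, and none of them passed the test. Camk2a stood at 17149 ± 495 and 17106 ± 475, Rock2 at 3709 ± 108 and 3743 ± 93.8, and Pak1 at 3494 ± 66.0 and 3516 ± 88.2 (limma, adjusted p = 0.99, 0.962 and 0.975). Ppp2ca, a catalytic subunit of a protein phosphatase, had an unadjusted p under 0.05 but was not called (log2 difference -0.06, limma adjusted p = 0.658), and was named after its value had been seen.

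Of 10 chaperones and adaptors that act on filaments, 9 were tested, 4 were higher, 5 lower and none was called (median log2 difference -0.0087). Cryab, the small heat shock protein that binds Gfap and collects with it in Rosenthal fibres, was at 589.5 ± 30.5 in Tecpr2 ki/ki and 540.5 ± 39.2 in wt/wt mice. The difference of 0.13 on the log2 scale had an unadjusted p of 0.00199 but an adjusted p of 0.404 in limma's test, and Cryab was named after this was seen. The highest of the list, the heat shock cognate Hspa8 (14093 ± 308 and 14362 ± 520), the autophagy adaptor Sqstm1 (2866 ± 82.3 and 2884.5 ± 112) and Dnajb6 (1040 ± 64.5 and 1066 ± 49.4), had adjusted p of 0.902, 0.980 and 0.917 in limma's test.

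Gfap transcription is driven by cytokines of the interleukin 6 family through Stat3, by bone morphogenetic proteins through Smad proteins, and by nuclear factor I, Sox9 and Notch signalling. The ligands were scarce in whole brain, with 7 of 12 high enough to be tested, 4 higher, 3 lower and none called (median log2 difference 0.08). The highest were Tgfb1 at 58.4 ± 8.85 and 54.6 ± 3.66, Bmp2 at 39.6 ± 7.01 and 45.4 ± 5.88, and Bmp4 at 17.9 ± 6.40 and 18.6 ± 3.81. At these levels counting error is large, and the interval of Tgfb1 ran from -0.12 to 0.29 on the log2 scale. All 14 receptors were tested, 9 higher, 5 lower and none called (median 0.0048). Bmpr2 stood at 4743 ± 49.0 and 4800 ± 105, the shared cytokine receptor subunit Il6st at 1504 ± 41.7 and 1475 ± 35.2, and the leukemia inhibitory factor receptor Lifr at 1223 ± 48.7 and 1220 ± 41.9 (limma, adjusted p = 0.931, 0.917 and 0.993). Bmpr1b, a receptor of bone morphogenetic proteins, was the only one with an unadjusted p under 0.05 (411.9 ± 17.8 and 370.6 ± 13.9; log2 difference 0.15, limma adjusted p = 0.220).

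None of the 25 transcriptional regulators of Gfap was called, 16 higher and 9 lower with a median log2 difference of 0.02. Several were low and imprecise, such as Socs3, whose standard error was 0.159. Stat3 itself was at 581.5 ± 22.3 in Tecpr2 ki/ki and 564 ± 39.6 in wt/wt mice (limma, adjusted p = 0.906), and Sox9 at 646 ± 35.3 and 625 ± 36.9 (limma, adjusted p = 0.902). Among the highest were Zbtb20 at 4838 ± 85.8 and 4679 ± 135 and the nuclear factor I gene Nfix at 3438.5 ± 88.8 and 3385 ± 96.1 (limma, adjusted p = 0.579 and 0.917). An unadjusted p under 0.05 in limma was reached by 4 of the 25, beside 6.08% of all tested genes. Besides Zbtb20 (log2 difference 0.05), it was found for Socs3, the feedback inhibitor of Stat3 signalling (30.8 ± 7.48 and 23.9 ± 6.06; 0.36), for Nfkb1 (0.12) and for Id1, a target of bone morphogenetic proteins (0.20). Their adjusted p in limma's test were 0.775, 0.641 and 0.820. Stat3, Sox9, Socs3, Nfkb1, Id1 and Bmpr1b were named after their values had been seen.

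None of the other listed markers of reactive astrocytes was called. Of 35 listed genes, 29 were tested, 14 were higher and 15 lower, with a median log2 difference of -0.0027. The complement gene C4b (log2 difference 0.69) was not on this list. Low genes of the list were imprecise, and a change in them could be missed. The interval of Clcf1 ran from -0.10 to 0.65 on the log2 scale, which includes the 0.58 of Gfap. That of Steap4 ran from -0.58 to 0.48. Clcf1 and Steap4 were named after their values had been seen. The highest were H2-D1 at 405.5 ± 36.9 and 393.5 ± 22.6, Fkbp5 at 268 ± 22.1 and 251 ± 16, and Cp, which encodes ceruloplasmin, at 259 ± 16.5 and 254 ± 7.72 (limma, adjusted p = 0.940, 0.877 and 0.975). Serpina3n, a secreted protease inhibitor, was the only one with an unadjusted p under 0.05 (133.5 ± 10.2 and 113.8 ± 11.7; log2 difference 0.23, limma adjusted p = 0.436), and was named after its value had been seen. Lcn2, Cxcl10, Tgm1 and Ptx3, which are often used as such markers, were among the 6 genes too low to be tested.

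Of 14 astrocyte markers, 2 were called, beside 0.133% of all tested genes, both with a smaller difference than Gfap. This list, too, was chosen with earlier results of these data known. An unadjusted p under 0.05 in limma was reached by 4 of the 14, beside 6.08% of all tested genes. Of the 14, 11 had a higher and 3 a lower mean in Tecpr2 ki/ki mice, with a median log2 difference of 0.04. Over all tested genes, 49.5% were higher. Aqp4, the water channel of astrocyte endfeet, was 2195 at the lowest, 2264.5 at the median and 2287 at the highest in Tecpr2 ki/ki mice, and 1904, 2057.5 and 2114 in wt/wt mice, without overlap (log2 difference 0.14, 95% interval 0.10 to 0.19, limma adjusted p = 3.75e-05). Slc1a2, the main glutamate transporter of astrocytes, was 44657, 45590.5 and 46722 in Tecpr2 ki/ki and 42299, 43363.5 and 45369 in wt/wt mice (log2 difference 0.06, 95% interval 0.04 to 0.09, limma adjusted p = 0.00229). The intervals of both genes end below that of Gfap, and the call of Slc1a2 was lost without the filter on low values (limma, adjusted p = 0.202). Glul, which encodes glutamine synthetase, was at 13861 ± 216 and 13757.5 ± 450 (log2 difference 0.01, limma adjusted p = 0.955), and Aldoc, an aldolase, at 6643 ± 173 and 6468.5 ± 242.5 (0.04, limma adjusted p = 0.814). Aldoc had an unadjusted p under 0.05, as had Atp1b2 (log2 difference 0.09, limma adjusted p = 0.557), which was named after its value had been seen. The summed level of the 14 markers was 85405 to 88201 in Tecpr2 ki/ki and 82099 to 86961 in wt/wt mice, none of them was at 0, and the part of astrocyte number in the Gfap difference was not tested.

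Microglial markers were measured beside Gfap as well, and 2 of 12 were called, beside 0.133% of all tested genes. The paper had already reported both, C1qa and Cd68, as upregulated in this whole brain experiment. The list was chosen with earlier results of these data known, so its counts are a description. An unadjusted p under 0.05 in limma was reached by 7 of the 12, beside 6.08% of all tested genes. Of the 12, 11 had a higher mean in Tecpr2 ki/ki mice, beside 49.5% of all tested genes, with a median log2 difference of 0.16. C1qa, a subunit of the first complement component, rose by 0.30 on the log2 scale (212 to 258 against 176 to 210, limma adjusted p = 0.00219). Cd68, a lysosomal protein of phagocytes, rose by 0.49 (52 to 83 against 34 to 55, limma adjusted p = 0.0431). The call of Cd68 was lost with any 1 of 5 mice left out, numbers 1, 3 and 8 of Tecpr2 ki/ki and numbers 1 and 6 of wt/wt (limma, adjusted p 0.103 to 0.155). Csf1r (708 ± 37.3 and 698 ± 34.9) and Cx3cr1 (423 ± 24.4 and 393 ± 26.3), among the highest, were not called (limma, adjusted p = 0.971 and 0.726). The summed level was 2505 to 2746 in Tecpr2 ki/ki and 2278 to 2524 in wt/wt mice, with no marker at 0, and its part in the Gfap difference was not tested.

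No marker of the vessel and meningeal cells that also make vimentin, nestin or plectin was called. An unadjusted p under 0.05 in limma was reached by 0 of 12 endothelial, 2 of 11 mural and 1 of 10 fibroblast markers, beside 6.08% of all tested genes. Of 12 endothelial markers, 5 were higher and 7 lower, none was called, and the summed level was 4095 to 4271 in Tecpr2 ki/ki and 4060 to 4303 in wt/wt mice. The highest were the receptor gene Flt1 (1115 ± 66.0 and 1126 ± 30.1), the glucose transporter gene Slc2a1 (722.5 ± 15.6 and 717 ± 41.7) and Slco1a4 (542 ± 23.5 and 533 ± 31.7). Of 11 tested mural markers (pericytes and smooth muscle), 7 were higher, 4 lower and none called, and the 12 listed summed to 3253 to 3424 and 3189 to 3437. They were led by Rgs5 (1145 ± 31.0 and 1155 ± 38.6), Vtn (497 ± 20.03 and 506 ± 31.7) and Cspg4 (394 ± 19.7 and 370 ± 25.8). Of 10 fibroblast markers, 6 were higher, 4 lower and none called, with a summed level of 1129 to 1402 and 1132 to 1251 and Col1a2 (265.5 ± 33.2 and 257 ± 18.6), Col1a1 (189 ± 55.9 and 185 ± 30.1) and Dcn (176 ± 5.20 and 168 ± 16.2) as the highest. The smallest adjusted p among these 9 genes was 0.814, for Cspg4, by limma.

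Of 7 tested ependymal markers, 2 were higher, 5 lower and none called, and the 10 listed summed to 197 to 240 and 188 to 248. They were low except for Foxj1 (118 ± 5.62 and 113 ± 11.6), with Rarres2 at 20.9 ± 3.94 and 17.5 ± 6.99 and Ccdc153 at 17.5 ± 3.66 and 18.1 ± 4.02. The 10 markers of neural progenitors were split evenly, none was called, and they summed to 2030 to 2242 and 2054 to 2209. Dcx (509.5 ± 24.8 and 508.5 ± 38.9), Sox11 (393 ± 21.4 and 403 ± 22.2) and Pax6 (372 ± 33.1 and 359 ± 38.3) were the highest. The smallest adjusted p among these 6 genes was 0.883, for Rarres2, by limma. In the whole lists, 0 of 7 ependymal and 1 of 10 progenitor markers had an unadjusted p under 0.05 in limma.

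Markers of neurons, oligodendrocytes and choroid plexus included 1 called gene. An unadjusted p under 0.05 in limma was reached by 4 of 12 neuronal, 0 of 12 oligodendrocyte and 2 of 10 choroid plexus markers, beside 6.08% of all tested genes. Of 12 neuronal markers, 11 had a lower mean in Tecpr2 ki/ki mice (median log2 difference -0.03, summed level 76712 to 80015 against 77197 to 82344), and Gad1, the enzyme that makes the transmitter GABA, fell by 0.09 on the log2 scale (limma, adjusted p = 0.0681). The call of Gad1 was lost with any 1 of 9 mice left out, numbers 2, 3, 4, 5 and 7 of Tecpr2 ki/ki and numbers 3, 4, 6 and 8 of wt/wt (limma, adjusted p 0.106 to 0.325). The highest, Map2, Snap25 and Syt1, had log2 differences of -0.03, -0.05 and -0.03 (limma, adjusted p = 0.714, 0.934 and 0.814). Of 12 oligodendrocyte markers, 3 were higher, 9 lower and none called (median -0.02, summed level 49807 to 55976 against 50111 to 55774), and Mbp and Mobp, among the highest, were at 0.0027 and -0.02. Of 10 choroid plexus markers, 4 were higher, 6 lower and none called (median -0.04, summed level 4683 to 5361 against 5191 to 5829), and Ttr, Kl and Prlr were at -0.09, -0.06 and 0.04 with adjusted p of 0.782, 0.907 and 0.958 in limma's test.

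Gfap is higher in brainstem and spinal cord than in the forebrain of a mouse, so markers of these regions were counted too. Of 16, 11 were tested, 7 were higher, 4 lower and none was called (median log2 difference 0.07). An unadjusted p under 0.05 in limma was reached by 1 of the 11. Slc6a5, the glycine transporter of inhibitory neurons, was at 393 ± 47.8 and 376 ± 50.3, the glycine receptor gene Glra1 at 208 ± 20.9 and 209.9 ± 20.2, and Tph2, the enzyme of serotonin neurons, at 57.1 ± 8.94 and 65 ± 7.76 (limma, adjusted p = 0.955, 0.989 and 0.875). Hoxb4, a low hindbrain patterning gene, had the largest difference of the list, 1.40 on the log2 scale, with an adjusted p of 0.165 in limma's test (0.0965 without wt/wt mouse 3), and was named after its value had been seen. The summed level was 745 to 985 in Tecpr2 ki/ki and 725 to 936 in wt/wt mice, and its part in the Gfap difference was not tested.

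**Figure D4:**
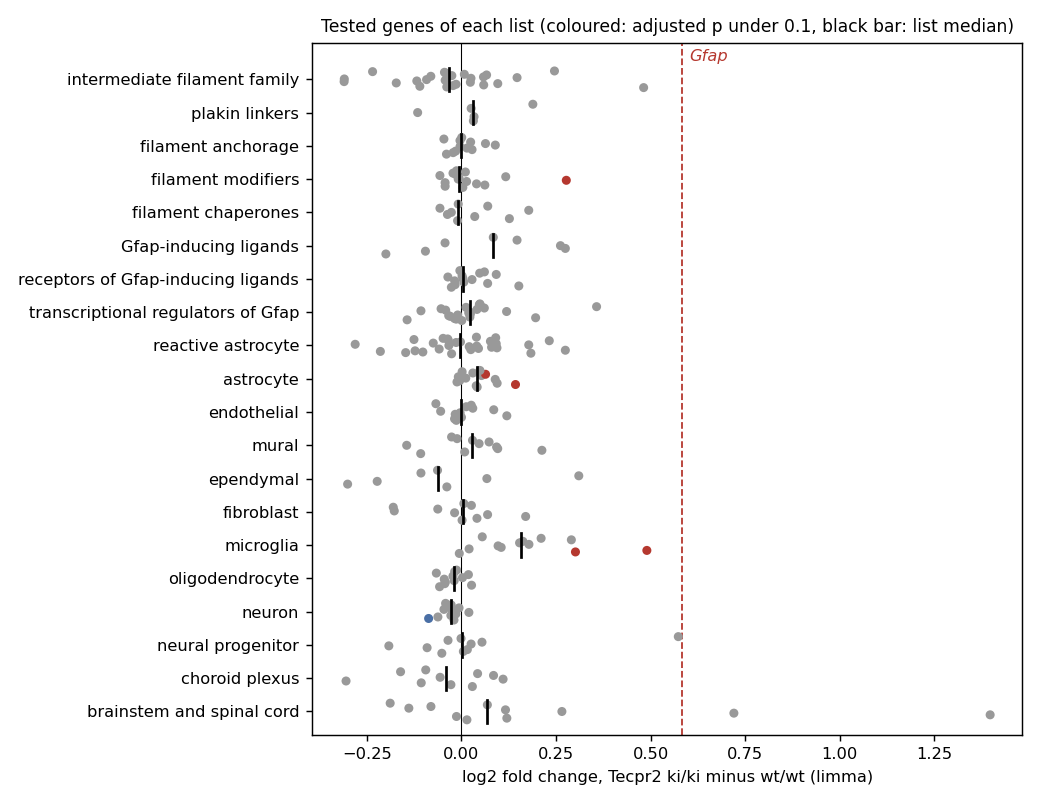
Log2 fold change, Tecpr2 ki/ki minus wt/wt (horizontal axis, limma), of the tested genes of 20 lists (rows), with 1 point per gene, red for genes called higher and blue for genes called lower at an adjusted p under 0.1, and a black bar at the list median. The dashed line marks Gfap at 0.58, and the list medians lie between -0.06 (ependymal) and 0.16 (microglia).

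To see whether mice of a genotype with more Gfap also had more of the other 4 transcripts, the mean of each genotype was subtracted and the deviations of the 16 mice were compared. This uses differences within a genotype, which did not choose Gfap. All values of a mouse come from 1 library and share its scaling. Gfap and Vim had a Pearson r of 0.40 (permutation p = 0.149, adjusted over 4 pairs 0.272) and a Spearman rho of 0.28 (permutation p = 0.310, adjusted 0.414). In wt/wt mice r was 0.83 (exact permutation p = 0.0160), while rho was 0.40 (exact permutation p = 0.327), and in Tecpr2 ki/ki mice r was 0.11 (exact permutation p = 0.766). Without Tecpr2 ki/ki mouse 3 and wt/wt mouse 7, the mice farthest from the median of Gfap, r was 0.013. The relation thus rests on those mice, of which wt/wt mouse 7 had the lowest wt/wt value of both genes (1300 for Gfap and 371 for Vim).

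Gfap and Nes had an r of 0.35 (permutation p = 0.204, adjusted 0.272) and a rho of 0.31 (permutation p = 0.246, adjusted 0.414), and r was 0.45 without the same 2 mice. Gfap and Synm had an r of 0.06 (permutation p = 0.824) and a rho of 0.10 (permutation p = 0.715), with r of -0.32 in Tecpr2 ki/ki and 0.42 in wt/wt mice, and r was 0.12 without the 2 mice. Gfap and Plec ran against each other, with an r of -0.45 (permutation p = 0.0768, adjusted 0.272) and a rho of -0.54 (permutation p = 0.0378, adjusted 0.151), and r was -0.47 without the 2 mice. None of the 4 relations passed an adjusted p of 0.05. Among the 6 pairs without Gfap, r lay between -0.33 (Vim and Plec) and 0.09 (Vim and Nes), given as a description.

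The deviations of the 5 genes were also compared with the mean log2 level of 11 lists of cell type or region markers. None of the 55 relations passed an adjusted p of 0.05 by r or by rho, with 6 at an unadjusted permutation p under 0.05 by r and 5 by rho. By r, the strongest relations were those of Gfap with the neuronal list (r = 0.68, permutation p = 0.00163, adjusted 0.0896 and rho = 0.71, permutation p = 0.00310, adjusted 0.0814) and with the astrocyte list (r = 0.66, permutation p = 0.00513, adjusted 0.141 and rho = 0.70, permutation p = 0.00444, adjusted 0.0814). Without the 2 mice farthest from the median of Gfap these r were 0.61 and 0.60. Gfap also had an r of 0.61 with the endothelial list (permutation p = 0.0190, adjusted 0.261), which was 0.49 without the 2 mice. By rho, the strongest relation was that of Plec, which ran against the endothelial list (r = -0.63, permutation p = 0.0112, adjusted 0.206 and rho = -0.75, permutation p = 0.00126, adjusted 0.0693), more in wt/wt (r = -0.88) than in Tecpr2 ki/ki mice (r = -0.21), a difference that was not tested. Without the 2 mice farthest from the median of Plec, its r with the endothelial list over both genotypes was -0.44. Plec had an r of -0.58 with the astrocyte list (permutation p = 0.0408, adjusted 0.374), which was -0.24 without them. Vim had its strongest r, 0.56, with the brainstem and spinal cord list (permutation p = 0.0329, adjusted 0.362), and this was 0.0048 without the 2 mice farthest from the median of Vim. Vim had an r of 0.04 with the astrocyte list and 0.31 with the endothelial list, and Nes of 0.13 and -0.16.

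**Figure D5:**
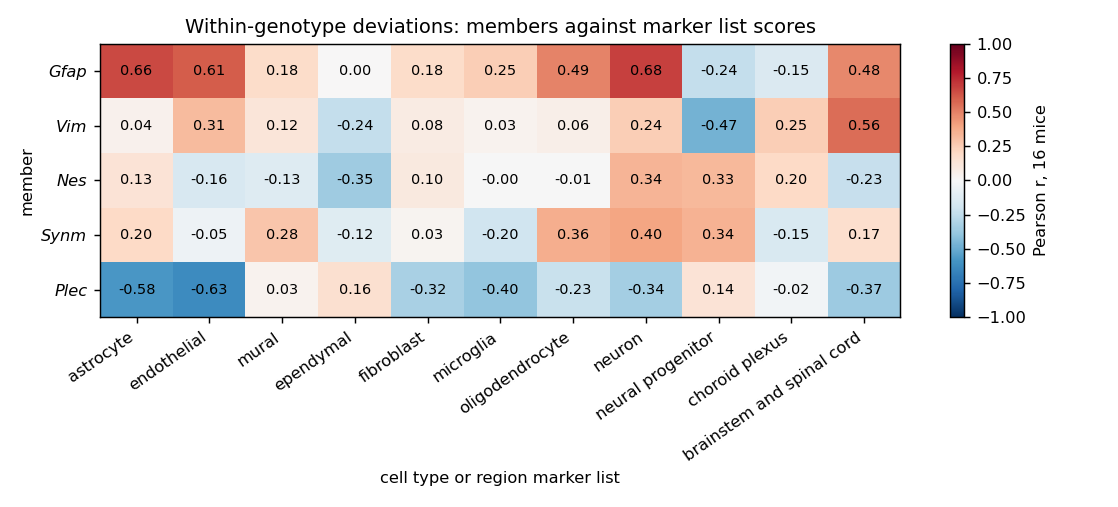
Pearson r (colour scale from -1 to 1, values printed) between the deviations of each of the 5 genes (rows) and the deviations of the mean log2 level of 11 marker lists (columns) from the mean of their genotype, over 16 mice. Gfap has its highest values with the neuronal (0.68) and astrocyte lists (0.66), Plec its lowest with the endothelial list (-0.63), and no relation passed an adjusted p of 0.05.

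The genes whose deviations were most like those of each gene, out of 11181 tested genes with a mean of at least 100 and a symbol, are given as a description. For Gfap they included Ankrd46 (r = 0.89), Thy1 (0.85), D430019H16Rik (0.84) and Gna11 (0.83) over 16 mice. Thy1 is a surface protein of neurons. For Vim they were Eid2 (0.88), Kank2 (0.82) and Kcnk3 (0.81), for Nes Bcas1 (0.81), 3300002P13Rik (0.81) and Cfap44 (0.76), for Synm Gli3 (0.82), Tmem147 (0.79) and Chst2 (0.78), and for Plec Gm45652 (0.84), Gm38056 (0.83) and Kctd3 (0.81). No gene was shared between these lists, and none of these 16 genes was called between the genotypes. These values of r carry no p.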

How the data were processed

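Stranded total RNA libraries were sequenced from whole brain of 16 mice, 8 of each genotype. According to the methods and the submitters' processing notes, reads were trimmed with Trim Galore 0.6.10 and cutadapt 3.4, aligned to GRCm39 with STAR 2.7.10b and counted per gene, and DESeq2 1.40.2 was used. The authors deposited a score per gene and mouse, namely linear normalised values rounded to whole numbers, and the sources used here do not name the normalisation. The joint table held the same values as each of the 16 tables deposited for single mice. Genotypes and replicate numbers were taken from the labels, and every value column was assigned.

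Because the values are normalised and rounded, no count test was run. A gene entered the test with a sum of values above 16 over the mice and with values above 5 in 4 or more mice of either genotype. Values were compared as log2(value + 1) in limma 3.58.1 under R 4.3.3, using lmFit and a robust eBayes step with a variance trend, and with genotype as the only term. Tests were two-sided, p-values were adjusted after Benjamini-Hochberg across the 23244 genes, and the threshold was 0.1. Fold changes on this scale understate those of low genes. Single genes were also compared by two-sided exact permutation tests, which run through 12870 splits of the 16 mice (smallest possible p 0.000155), and correlations by 100000 permutations within genotypes (Python 3.11.15, numpy 2.4.6, scipy 1.17.1, pandas 2.3.3, matplotlib 3.10.9). Intervals are at 95%.

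The genes and lists were chosen with earlier results of these data known. Genes named were the 5 genes, list genes at an adjusted p under 0.1, the 3 highest genes of each list, the genes most like each of the 5, 2 annotated genes on each side of Gfap, and Tecpr2. Some genes that fall under this rule are not reported here. Symbols, coordinates and exon lengths came from GENCODE for GRCm38, and 52017 of 55404 genes had a symbol. Promoter sequences came from RefSeq, where 4 of the 5 genes matched. Other filters, pseudocounts (0.1 and 5), scalings and variance estimates were tried, and each mouse was left out in turn.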

Additional observations from a re-analysis of the deposited data

Results flagged for a closer look

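In 62 groups of 8 mice, each holding the values of 1 gene in 1 genotype, the lowest or highest mouse was set against the rest with Dixon's ratio (gap to the nearest mouse over the whole range, set against the 95% critical value). Chance alone marks about 5% of groups, and 3 are given here. Vim in wt/wt mouse 7 was 371, with a ratio of 0.531, and this is one of the 2 mice without which the correlation of Gfap and Vim was 0.013. Aqp4 in Tecpr2 ki/ki mouse 7 was 2195, with a ratio of 0.543, and this lowest Tecpr2 ki/ki value still lay above the highest wt/wt value of 2114. Gm45652, the gene most like Plec, was 129 in Tecpr2 ki/ki mouse 7 (ratio 0.571).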

How the results depend on the processing

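The log2 difference of Gfap lay between 0.56 and 0.59 with any 1 mouse left out and between 0.58 and 0.59 under the other settings, and that of the Gfap to Vim ratio between 0.51 and 0.56 with any 1 mouse left out. None of the alternatives run brought Vim, Nes, Synm or Plec past the threshold. With 1 mouse left out in turn, Vim lay between 0.02 and 0.08 (limma, adjusted p 0.877 to 0.973) and Plec between -0.03 and -0.01. Nes lay between -0.060 and 0.012 and Synm between -0.026 and 0.0091, crossing 0 in 2 and 5 of the 16 cases (Nes 0.012 without Tecpr2 ki/ki mouse 5 and 0.0072 without wt/wt mouse 4, and Synm 0.0048 and 0.0030 without Tecpr2 ki/ki mice 3 and 5, and 0.0091, 0.0035 and 0.00040 without wt/wt mice 3, 5 and 6), so neither has a stable direction. The number of called genes was 31, was 20 without the filter on low values, with 41926 genes tested, and lay between 25 and 40 with 1 mouse left out. With libraries scaled to the same total, the correlation of Gfap and Synm turned to -0.057 and that of Gfap and Plec reached a rho of -0.62 (permutation p = 0.0118, adjusted 0.0473), with an r of -0.54 (adjusted 0.0627). Under this scaling the r of Gfap fell to 0.59 with the neuronal, 0.56 with the astrocyte and 0.47 with the endothelial list. That of Plec was -0.76 with the astrocyte and -0.54 with the endothelial list, and no relation with a marker list passed an adjusted p of 0.05. The cause was not tested. With the replicate number as a block 46 genes were called, and the blocked fit changed no call among Vim, Nes, Synm and Plec. Among the list genes it added Atp1b2, an astrocyte marker (log2 difference 0.09, limma adjusted p 0.00027 with the block). Cd68 and Gad1 were also lost without the filter on low values (limma, adjusted p 0.108 and 0.114), and Gad1 without the robust option (0.20), while Padi2, Aqp4 and C1qa were called under every alternative run. Same-numbered mice correlated between -0.0053 and 0.064, and 0 of 8 pairs passed 0.1, but 6 of 16 mice correlated best with their own number. These values do not settle whether the numbers pair the mice. Precision was limited by read counts for Nes and for the ligands, which had low values.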
